A study of Mus musculus with 12 samples.

Results

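Expression of the enzymes that make and break down eicosanoids and platelet-activating factor (PAF) was measured in MDSCs, immunosuppressive myeloid cells, with and without nanoparticles (NPs) on their surface. The genes were taken by symbol from the count table and are all 10 of the 10 that were sought, out of 35303 symbols in the table. They are Ptgs1, Ptgs2, Ptges, Hpgds, and Tbxas1 of the prostanoid branch, Alox5, Alox5ap, Lta4h, and Ltc4s of the leukotriene branch, and Pla2g7, which encodes the secreted PAF acetylhydrolase. No measured value entered this choice, although earlier results of these data were known when it was made. The 12 bulk RNA-seq libraries fell into 3 groups of 4. MDSC were unmodified cells, MDSC-NP-Blk were cells with blank poly(lactide-co-glycolide) NPs, and CITED were cells carrying NPs loaded with rapamycin, an inhibitor of the kinase mTOR. In all groups the cells were wild type and came from the marrow of female C57BL/6 mice aged 6 to 10 weeks, which was grown for 3 days with IL-6 and GM-CSF (40 ng/ml each). They were purified with beads for CD11b+Gr1+ cells, and after NP conjugation, where there was any, they were kept for 24 hours with IL-6 at 40 ng/ml. The NPs were attached through azido groups that a modified sugar puts on the cell surface, and whether the unmodified cells of these libraries also carried azido groups is not stated. The preparation is a mixture of monocytic and polymorphonuclear MDSCs, so a bulk difference cannot tell fewer cells of a type from less RNA per cell.

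As background, phospholipases release arachidonate from membranes, and it is then oxidized along either of 2 branches. Cyclooxygenases (Ptgs1, constitutive in most cells, and Ptgs2, inducible) make prostaglandin H2, from which terminal synthases make prostaglandin E2, prostaglandin D2, or thromboxane. In the other branch 5-lipoxygenase (Alox5), with its membrane partner FLAP (Alox5ap), makes leukotriene A4, which Lta4h hydrolyzes to the neutrophil attractant leukotriene B4 and Ltc4s conjugates to glutathione to give the cysteinyl leukotrienes. PAF is a phospholipid mediator remade by Lpcat2 and inactivated by acetylhydrolases such as Pla2g7. Myeloid cells are a major source of leukotrienes, and prostaglandin E2 is among the mediators through which MDSCs are known to restrain T cells.

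Each library held between 20604809 and 37855478 counts, and 17676 symbols with at least 2 counts in all were tested, the 10 enzymes among them. Values are given as normalized counts, which are counts divided by the library's size and its trimmed-mean (TMM) factor and scaled to the mean library, in the order of replicates 1 to 4. The scaling factors ran from 1.12 to 1.15 for unmodified cells, 0.938 to 0.947 with blank NPs, and 0.921 to 0.944 in CITED, so the scaling itself differed between unmodified and NP-bearing cells. With library totals alone, the median log2 fold change of genes with a mean above 50 shifted by −0.27 for CITED and −0.26 for MDSC-NP-Blk against MDSC, and the genes called went from 580 higher and 1185 lower to 272 and 1890, and from 333 and 505 to 146 and 1060. A gene is said to rise or fall where edgeR's quasi-likelihood test gave a Benjamini-Hochberg adjusted p below 0.05, and it is called where its log2 fold change was also at least 1 in size. All 8 CD11b and Gr1 cell markers were detected in every group. Their summed normalized count was 601334 to 686097 in unmodified MDSCs, 822860 to 879394 with blank NPs, and 641424 to 735627 in CITED. Most of it came from S100a8 and S100a9, with means of 263621 and 282835 in MDSC. At adjusted p below 0.05 against MDSC, 7 of the 8 were higher and 0 lower with blank NPs. In CITED 4 were higher and 2 lower, the latter being Ly6c1 (log2 fold change −1.04) and Ly6c2 (−0.35). The labels name the CNS as tissue, whereas the methods describe cultured marrow cells.

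Against unmodified MDSCs, the enzymes mostly rose on both kinds of NP-bearing cells, and the gene of leukotriene A4 hydrolase fell. In CITED, 7 of the 10 rose and 1 fell, where 22.2% of all symbols tested rose and 22.2% fell. The 3 called higher were Alox5ap, Ltc4s, and Pla2g7, and the 1 called lower was Lta4h, against 3.28% and 6.7% of all symbols. In MDSC-NP-Blk, 7 rose and 2 fell, where 19.9% and 18.6% of all symbols did. Of these, Ptgs2, Alox5ap, and Ltc4s were called higher and 0 lower, against 1.88% and 2.86%. The unadjusted p was below 0.05 for 10 of the 10 in this comparison, where it was so for 44.4% of all symbols, and DESeq2 called 1 of them lower, Hpgds. Between CITED and MDSC-NP-Blk, which differ in the rapamycin load, 3 rose and 2 fell, where 10.5% and 11.4% of all symbols did, and 0 were called by edgeR or by DESeq2, against 0.651% called higher and 2% called lower. At an unadjusted p below 0.05 there were 6 of the 10, beside 31.2% of all symbols. The median log2 fold change over the 10 genes was 0.53 for CITED and 0.43 for MDSC-NP-Blk against MDSC, where over all symbols tested it was −0.052 and −0.027, and −0.031 between CITED and MDSC-NP-Blk, where it was 0. With library totals in place of TMM, 5 enzymes rose and 2 fell in CITED (median 0.25, against −0.32 over all symbols, of which 12.4% rose and 35.8% fell), and 5 rose and 3 fell in MDSC-NP-Blk (median 0.17, against −0.29, with 9.4% and 34.5%). Both comparisons against MDSC use the same 4 unmodified libraries.

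**Figure D1:**
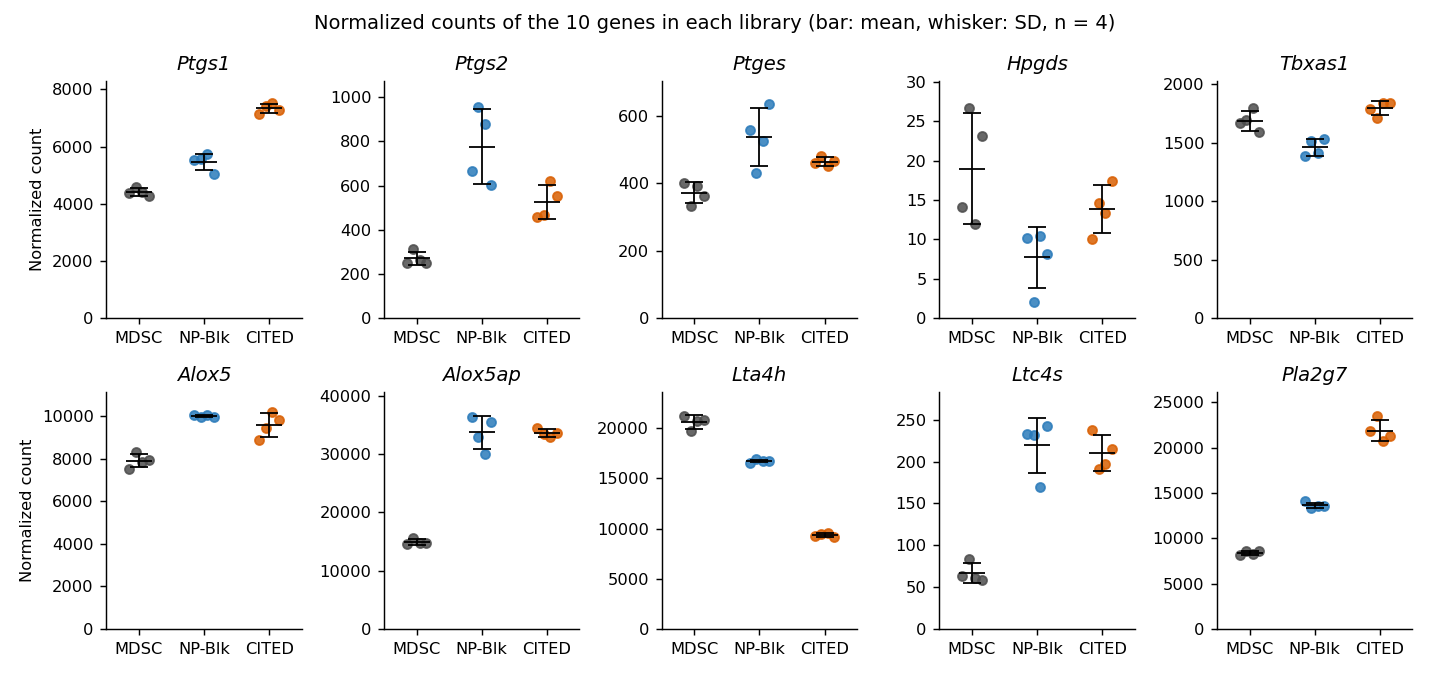
Normalized count of each of the 10 enzyme genes (y axis, from 0) in the 4 libraries of MDSC, MDSC-NP-Blk (NP-Blk), and CITED (points), with the mean (bar) and SD (whisker). Alox5ap and Ltc4s stood at similar heights in both NP-bearing groups, Pla2g7 and Ptgs1 climbed from MDSC through MDSC-NP-Blk to CITED, Lta4h stepped down in the same order, and Ptgs2 was highest in MDSC-NP-Blk.

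**Figure D2:**
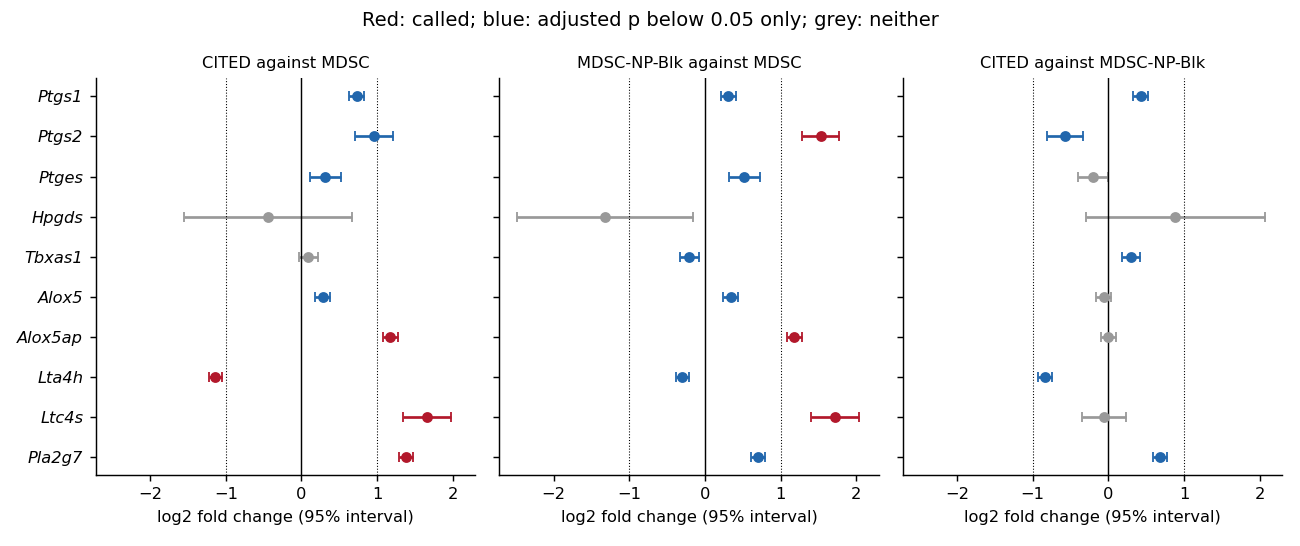
Log2 fold change of each gene with its 95% interval (x axis) in the 3 comparisons. Red marks called genes, blue those with an adjusted p below 0.05 only, grey the others, and dotted lines a log2 fold change of 1 in either direction; Hpgds, with raw counts of 3 to 28, has the widest intervals.

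In the leukotriene branch, Alox5ap encodes FLAP, the membrane protein that presents arachidonate to 5-lipoxygenase, and it lies on chromosome 5 from 149196003 to 149227762, plus strand, with 6 exons in its canonical transcript (GRCm39, GENCODE M39, as for all genes named here). Its normalized counts were 14500.2, 15599.6, 14780.3, and 14650 in unmodified MDSCs, 36367, 32841, 30014, and 35503 with blank NPs, and 34444, 33396, 32921, and 33649.8 in CITED. Every NP-bearing library lay above every unmodified one, with or without the drug. The mean was 14882 ± 492 in unmodified MDSCs, 33681 ± 2869 with blank NPs, and 33603 ± 637 in CITED (SD, n = 4 each). It rose 2.26-fold in CITED (log2 fold change 1.17, standard error 0.0492, adjusted p = 3.71e-20) and 2.26-fold in MDSC-NP-Blk (log2 fold change 1.18, standard error 0.0492, adjusted p = 1.52e-19). The NP-bearing groups overlapped, and their difference had a log2 fold change of −0.0033 with a 95% interval of −0.10 to 0.095 (adjusted p = 1). With library totals in place of TMM the rises were 0.90 and 0.92 on the log2 scale and were no longer called.

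Alox5, the 5-lipoxygenase that FLAP serves, lies on chromosome 6 from 116387032 to 116438139, minus strand, with 14 exons in its canonical transcript. It had 7531, 8296, 7857, and 7937 normalized counts in unmodified MDSCs, 10041, 9947, 10066, and 9981 with blank NPs, and 8899, 9461, 10192, and 9805 in CITED. Its NP-bearing libraries also lay above all unmodified ones, but by far less than for its partner. From 7905 ± 314 in MDSC it rose to 10009 ± 54.2 in MDSC-NP-Blk (log2 fold change 0.34, adjusted p = 3.3e-07) and 9589 ± 549 in CITED (log2 fold change 0.28, adjusted p = 7.13e-06; SD, n = 4 each). CITED and MDSC-NP-Blk overlapped, with a 95% interval of −0.16 to 0.035 for the log2 fold change between them (adjusted p = 0.409). The small rise depended on the scaling, since with library totals alone it was 0.0051 (adjusted p = 0.963) in CITED and 0.078 (adjusted p = 0.194) in MDSC-NP-Blk.

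Lta4h, the hydrolase that turns leukotriene A4 into leukotriene B4, was the enzyme called lower. It lies on chromosome 10 from 93289210 to 93320749, plus strand, with 19 exons in its canonical transcript. In unmodified MDSCs it had 21227, 19691, 20738, and 20819 normalized counts, with blank NPs 16564, 16894, 16685, and 16724, and in CITED 9275, 9433, 9565, and 9147. The 3 groups were fully separated, and the 4 CITED libraries lay lowest. The means fell from 20619 ± 655 in unmodified MDSCs to 16717 ± 136 in MDSC-NP-Blk and 9355 ± 183 in CITED (SD, n = 4 each). The gene was 2.20-fold lower in CITED than in MDSC (log2 fold change −1.14, standard error 0.0429, adjusted p = 2.67e-21) and 1.23-fold lower in MDSC-NP-Blk (log2 fold change −0.30, adjusted p = 3.23e-07). Between the NP-bearing groups it was 1.79-fold lower in CITED (log2 fold change −0.84, standard error 0.0427, adjusted p = 1.02e-16), below the size needed for a call. The reference promoter of Lta4h, shown here because this gene fell while its branch partners rose, held 1 match among the 8 motifs searched, a PU.1 core (GAGGAA) on the opposite strand, which stands in capitals as its complement. The stretch covers the bases from 250 to 49 before the transcription start in RefSeq, at chr10:93453146-93453347 on the plus strand of GRCm38.p6.
Lta4h: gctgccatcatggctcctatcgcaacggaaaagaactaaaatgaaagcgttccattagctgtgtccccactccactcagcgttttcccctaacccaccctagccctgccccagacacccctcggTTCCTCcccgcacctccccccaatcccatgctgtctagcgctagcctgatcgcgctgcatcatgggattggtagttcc

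Ltc4s, the leukotriene C4 synthase that competes with Lta4h for leukotriene A4, was the enzyme with the largest fold change among the called ones in either comparison against MDSC. It lies on chromosome 11 from 50127288 to 50129443, minus strand, with 5 exons in its canonical transcript. It was weakly expressed, with 63.7, 83.7, 60.8, and 58.4 normalized counts in MDSC, 233, 232, 169.9, and 242 with blank NPs, and 238, 191, 198, and 216 in CITED. All 8 NP-bearing libraries exceeded the 4 unmodified ones, and replicate 3 of MDSC-NP-Blk stood below the other libraries of its group. From 66.7 ± 11.6 in MDSC it rose 3.16-fold to 211 ± 21.2 in CITED (log2 fold change 1.66, standard error 0.156, adjusted p = 4.14e-11). In MDSC-NP-Blk it rose 3.29-fold to 219 ± 33.3 (log2 fold change 1.72, standard error 0.155, adjusted p = 3e-11; SD, n = 4 each). The NP-bearing groups overlapped, with a log2 fold change of −0.059 between them and a wider 95% interval than for Alox5ap, −0.35 to 0.23 (adjusted p = 0.846). Its reference promoter, for comparison with that of Lta4h, held none of the 8 motifs in the 250 bases before the start. The part outside annotated transcripts covers the bases from 250 to 85 before the start, at chr11:50238617-50238782 on the minus strand of GRCm38.p6, and is written 5′ to 3′.
Ltc4s: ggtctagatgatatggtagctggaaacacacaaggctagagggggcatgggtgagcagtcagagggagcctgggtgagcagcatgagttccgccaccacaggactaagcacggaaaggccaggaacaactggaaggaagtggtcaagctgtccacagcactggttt

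Mast cells, basophils, and eosinophils also express Ltc4s, and their marker genes moved with the groups. The 12 mast cell and basophil markers summed to 15363 to 16419 normalized counts in unmodified MDSCs, 18613 to 21352 with blank NPs, and 10741 to 10994 in CITED. Of the 11 tested, 7 rose and 0 fell with blank NPs, and 1 rose and 6 fell in CITED, against MDSC. The mast cell protease gene Mcpt4 was at 0 in every library, Tpsab1 was at 0 in MDSC and MDSC-NP-Blk, and Cma1 in MDSC-NP-Blk and CITED. The 9 eosinophil markers, none at 0 in a whole group, summed to 34252 to 40768 in unmodified MDSCs, 26601 to 32272 with blank NPs, and 11098 to 11522 in CITED. In CITED against MDSC, 6 of them were called lower, 2 did not pass, and Siglecf rose (log2 fold change 0.30, adjusted p = 0.0366). The Ltc4s counts of CITED and MDSC-NP-Blk overlapped while both marker sums were lower in CITED, and the part of these cells in its level was not tested. The 8 mature neutrophil markers, from cells that express Alox5, Alox5ap, and Lta4h, summed to 364580 to 386758 in unmodified MDSCs, 545216 to 553991 with blank NPs, and 416495 to 451893 in CITED, none at 0, with 5 of them rising and 3 falling in CITED and 7 rising and 0 falling with blank NPs, and their part was not tested either. The 9 dendritic cell markers summed to 33124 to 35270 in unmodified MDSCs, 38386 to 41103 with blank NPs, and 36012 to 37728 in CITED, and the 10 lymphoid and erythroid markers to 646 to 713, 509.7 to 562, and 189.8 to 203. Nkg7, the 1 of these 10 with a mean above 50, made up most of that sum, at means of 501, 406, and 103. In CITED against MDSC, 4 of the 10 fell, 0 rose, and 6 did not pass.

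In the prostanoid branch, Ptgs1 encodes the constitutive cyclooxygenase and lies on chromosome 2 from 36120438 to 36142287, plus strand, with 11 exons in its canonical transcript. It had 4365, 4591, 4408, and 4289.5 normalized counts in unmodified MDSCs, 5525, 5569, 5728, and 5053 with blank NPs, and 7143, 7414, 7518, and 7273 in CITED. The groups did not overlap and rose in that order. The means were 4413 ± 128, 5469 ± 291, and 7337 ± 164 (SD, n = 4 each). Ptgs1 rose 1.66-fold in CITED against MDSC (log2 fold change 0.73, standard error 0.0486, adjusted p = 7.13e-15), 1.24-fold in MDSC-NP-Blk (log2 fold change 0.31, adjusted p = 2.51e-06), and 1.34-fold in CITED against MDSC-NP-Blk (log2 fold change 0.42, adjusted p = 1.7e-08). The rise in MDSC-NP-Blk did not outlast a change of scaling, being 0.047 (adjusted p = 0.457) with library totals alone.

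Ptgs2, the inducible cyclooxygenase (COX-2), lies on chromosome 1 from 149975194 to 149983978, plus strand, with 10 exons in its canonical transcript, and its highest counts were in cells with blank NPs. Its libraries had 251, 314, 265, and 251 normalized counts in unmodified MDSCs, 667, 958, 878, and 605 with blank NPs, and 456, 468, 619, and 552 in CITED. Both NP-bearing groups lay above MDSC, but they overlapped each other, since replicate 3 of CITED was above replicate 4 of MDSC-NP-Blk. From 270.2 ± 30.02 in MDSC the mean rose 2.89-fold to 777 ± 168 in MDSC-NP-Blk (log2 fold change 1.53, standard error 0.120, adjusted p = 1.07e-12; SD, n = 4 each). In CITED it rose 1.94-fold to 524 ± 76.5 (log2 fold change 0.96, standard error 0.122, adjusted p = 3.3e-08), just short of a call, and it was called without MDSC replicate 2 (1.04), CITED replicate 1 (1.02), or CITED replicate 2 (1.01), and after a correction for transcript length (1.12). Between the NP-bearing groups it was 1.49-fold lower in CITED (log2 fold change −0.57, standard error 0.115, adjusted p = 0.000249). Its 250-base promoter window held the C/EBP motif (TTGCNNAA) on both strands from 69 to 62 bases before the start, which 9.56% of all 32851 RefSeq windows also held, together with 1 PU.1 core and 1 GC box farther upstream. Annotated Ptgs2 transcripts already reach into this window, so only the match and its flanks are shown. The 30 bases around the match, chosen after it was found, run from 80 to 51 before the start at chr1:150099951-150099980 on the plus strand of GRCm38.p6, with the match in capitals.
Ptgs2: cgctgcggttcTTGCGCAActcactgaagc

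The 8 motifs searched on both strands of each window, with the share of all windows that held them, were the TATA box (TATAAA, 12.4%), an E-box (CACGTG, 6.02%), a CRE core (TGACGT, 6.47%), AP-1 (TGANTCA, 6.75%), C/EBP (9.56%), PU.1 (23.3%), a GC box (GGGCGG, 32.7%), and NF-kB by name (7.25%). Of the 5 genes called in any comparison, 4 had a window in the RefSeq table, and the window of Pla2g7 held a GC box from 13 to 8 bases before its start. A match only says that these letters occur there, and the C/EBP match of Ptgs2 is the same bases read on either strand.

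Ptges, the microsomal prostaglandin E synthase coupled to Ptgs2, lies on chromosome 2 from 30779483 to 30820196, minus strand, with 3 exons in its canonical transcript. It had 399.5, 332, 392, and 362 normalized counts in MDSC, 556, 429.6, 525, and 635 with blank NPs, and 460.2, 479, 449.6, and 465 in CITED. Both NP-bearing groups lay above MDSC and overlapped each other. The gene rose 1.44-fold in MDSC-NP-Blk (log2 fold change 0.52, adjusted p = 4.94e-05) and 1.25-fold in CITED (log2 fold change 0.32, adjusted p = 0.00886), from 372 ± 30.9 to 537 ± 84.9 and 464 ± 12.4 (SD, n = 4 each). The rise in CITED was 0.043 (adjusted p = 0.765) with library totals alone, and between the NP-bearing groups the log2 fold change was −0.20, with a 95% interval of −0.40 to −0.0022 (adjusted p = 0.154).

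Tbxas1, thromboxane A synthase, lies on chromosome 6 from 38852203 to 39061523, plus strand, with 13 exons in its canonical transcript and changed least among the well expressed enzymes in CITED against MDSC. Its normalized counts were 1666, 1694, 1797, and 1591 in MDSC, 1392, 1514, 1410.4, and 1535 with blank NPs, and 1792, 1716, 1841, and 1839.98 in CITED. The MDSC-NP-Blk libraries lay below all others, and MDSC and CITED overlapped. It fell in MDSC-NP-Blk against MDSC (log2 fold change −0.21, adjusted p = 0.00606) and was 1.23-fold higher in CITED than in MDSC-NP-Blk (log2 fold change 0.30, adjusted p = 0.000293), with means of 1687 ± 85.1, 1463 ± 72.5, and 1797 ± 58.9 (SD, n = 4 each). For CITED against MDSC the log2 fold change was 0.091 with a 95% interval of −0.031 to 0.21 (adjusted p = 0.233), and its sign turned with library totals alone (−0.18, adjusted p = 0.0124). Platelets carry both Ptgs1 and Tbxas1. The 9 platelet markers, none at 0, summed to between 5554 and 6544 in unmodified MDSCs, 8130 and 8880 with blank NPs, and 8651 and 9227 in CITED, and their part in the counts of these enzymes was not tested. With blank NPs 7 of the 9 rose and 0 fell, while in CITED Pf4 and Ppbp rose (log2 fold changes 0.87 and 1.22) and Itga2b, Gp6, and Vwf fell (−0.21, −0.82, and −0.30), against MDSC.

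Hpgds, the hematopoietic prostaglandin D synthase, was at the edge of detection. It lies on chromosome 6 from 65094001 to 65121983, minus strand, with 6 exons in its canonical transcript. Its normalized counts were 14.2, 26.6, 11.97, and 23.1 in MDSC, 10.2, 2.07, 10.4, and 8.19 with blank NPs, and 10.03, 14.7, 13.3, and 17.4 in CITED. Raw counts were 3 to 28 a library, where 3 counts were taken as the floor of detection. The MDSC-NP-Blk libraries lay below the MDSC ones, and CITED overlapped both groups. In MDSC-NP-Blk the log2 fold change was −1.33 (95% interval −2.49 to −0.16, adjusted p = 0.0666), which did not pass, although DESeq2 (−1.36, adjusted p = 0.0277), a stricter filter on low counts (−1.35, adjusted p = 0.0262), and library totals in place of TMM (−1.58, adjusted p = 0.0226) called it lower. In CITED it was −0.44 against MDSC (95% interval −1.55 to 0.67, adjusted p = 0.545) and 0.88 against MDSC-NP-Blk (95% interval −0.30 to 2.07, adjusted p = 0.321), so differences of this size were not detectable at these counts. Hpgds is also a mast cell gene. With blank NPs, where its counts were lowest, 7 of the 11 mast cell and basophil markers tested rose against MDSC. The other 4 did not pass, Ms4a2 and Fcer1a among them, and the part of these cells was not tested.

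Pla2g7, the PAF acetylhydrolase, lies on chromosome 17 from 43878846 to 43923289, plus strand, with 12 exons in its canonical transcript. It had 8182, 8557, 8298, and 8604 normalized counts in MDSC, 14069, 13380.5, 13544, and 13543 with blank NPs, and 21894, 23472, 20771, and 21344 in CITED. The 3 groups were fully separated, with CITED highest. The means were 8410.2 ± 203, 13634 ± 299.8, and 21870.2 ± 1162 (SD, n = 4 each). It rose 2.60-fold in CITED against MDSC (log2 fold change 1.38, standard error 0.0459, adjusted p = 1.1e-22) and 1.62-fold in MDSC-NP-Blk (log2 fold change 0.70, standard error 0.0454, adjusted p = 1.13e-14). Against MDSC-NP-Blk, CITED was 1.60-fold higher (log2 fold change 0.68, standard error 0.0452, adjusted p = 6.36e-14). Macrophages express Pla2g7 too. The 9 macrophage markers, none at 0, summed to between 25212 and 26672 in unmodified MDSCs, 32063 and 34952 with blank NPs, and 39727 and 41242 in CITED, yet 5 of them fell and 3 rose in CITED, and 5 fell and 2 rose in MDSC-NP-Blk, against MDSC, and their part was not tested.

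Of the 10 genes, 9 shared exon bases with a gene model on the opposite strand, Lta4h being the exception, and the share was largest for Ltc4s, at 268 of 1037 bases. Whether the quantification used strand is not stated, and 1 of the 10 partner models was in the table used here, at 0 to 1 counts.

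Levels were compared between enzymes per length, as RPKM (counts per kilobase of canonical transcript, scaled to library size), with no test between genes. In MDSC, Lta4h was highest (407), followed by Alox5ap (216), Pla2g7 (131), Alox5 (113), Ptgs1 (62.4), and Tbxas1 (33.9), and none of these neighbors overlapped. Far below them came Ltc4s (4.10) and Ptges (4.08), whose libraries overlapped, then Ptgs2 (2.31) and Hpgds (0.200). Lta4h, Alox5ap, and Alox5 of the leukotriene branch and the PAF acetylhydrolase thus headed the order in unmodified cells, whereas Ltc4s stood below Ptgs1 and Tbxas1. In MDSC-NP-Blk, Alox5ap led at 489, ahead of Lta4h at 330.3, Pla2g7 at 212, and Alox5 at 144. Ltc4s reached 13.5, and Ptgs2 (6.64, 5.17 to 8.18) and Ptges (5.89, 4.72 to 6.97) overlapped. In CITED, Alox5ap again led at 488, Pla2g7 stood second at 340.1, then Lta4h at 185, ahead of Alox5 at 138 and Ptgs1 at 104. Ptges (5.09) and Ptgs2 (4.48) overlapped there as well. The place of Alox5ap rested on the transcript chosen: with the median length of its coding transcripts, 1251 bases in place of 2792, its level in MDSC was 483, above that of Lta4h at 409.8, and Alox5 (144) moved above Pla2g7 (134).

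**Figure D3:**
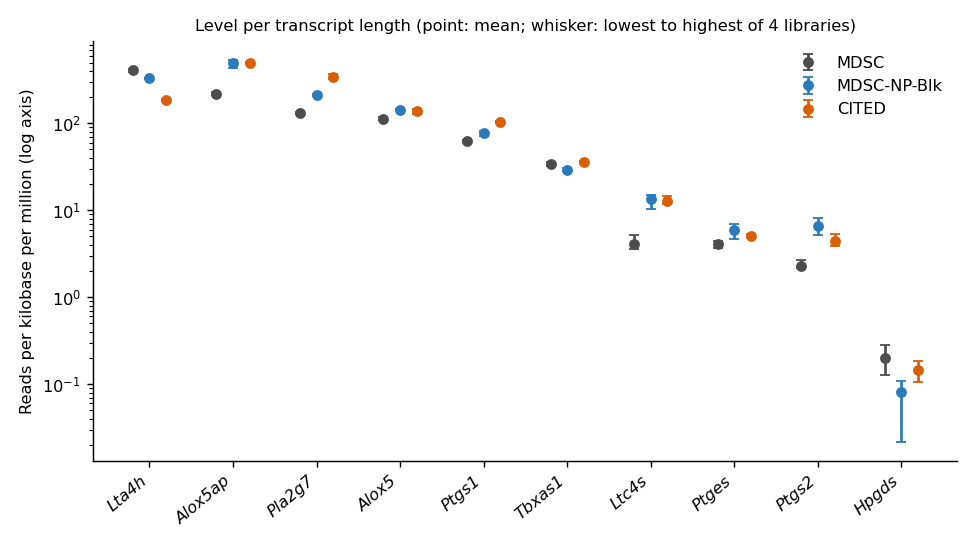
Level of each enzyme as RPKM over its canonical transcript (y axis, log scale), ordered by its mean in MDSC, with the mean (point) and the lowest to highest of 4 libraries (whisker) for each group. The group means of the leading 6 genes lie between 29.4 and 489, those of the other 4 between 0.0815 and 13.5, and Lta4h drops from the first place in unmodified MDSCs to the third in CITED.

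Ratios of such levels within a library do not depend on the library factors, and 4 were taken after the values had been seen, so they are described with no test. Ltc4s amounted to 1.01% ± 0.210 of Lta4h in MDSC, 4.08% ± 0.617 with blank NPs, and 7.01% ± 0.802 in CITED (SD, n = 4 each). The ranges did not overlap (0.872 to 1.32%, 3.17 to 4.502%, and 6.29 to 7.99%), so the balance of these 2 transcripts differed among all 3 groups, with Lta4h ahead in each. Mgst2, a glutathione transferase of the other leukotriene list, does not enter this ratio. Its means were 2813 normalized counts in MDSC, 3705 with blank NPs, and 2842 in CITED. Alox5ap relative to Alox5 was 191% ± 3.30 in MDSC, 341% ± 29.4 with blank NPs, and 356% ± 27.1 in CITED, and the NP-bearing groups overlapped. Ptgs2 relative to Ptgs1 was 3.69% ± 0.301, 8.54% ± 1.55, and 4.31% ± 0.568 in the same order, with MDSC (3.47 to 4.13%) and CITED (3.82 to 4.98%) overlapping below MDSC-NP-Blk. The constitutive enzyme had the higher transcript level throughout. Pla2g7, which inactivates PAF, relative to Lpcat2, which makes it, was 238% ± 6.58 in MDSC, 225% ± 23.1 with blank NPs, and 317% ± 12.6 in CITED. The CITED libraries lay above all others, and MDSC and MDSC-NP-Blk overlapped. Lpcat2 itself rose against MDSC, from 3831 ± 140 to 7473 ± 212 in CITED (log2 fold change 0.96, adjusted p = 1.02e-16), short of a call. With blank NPs it rose to 6616 ± 596 (log2 fold change 0.79, adjusted p = 4.49e-14), not called either.

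**Figure D4:**
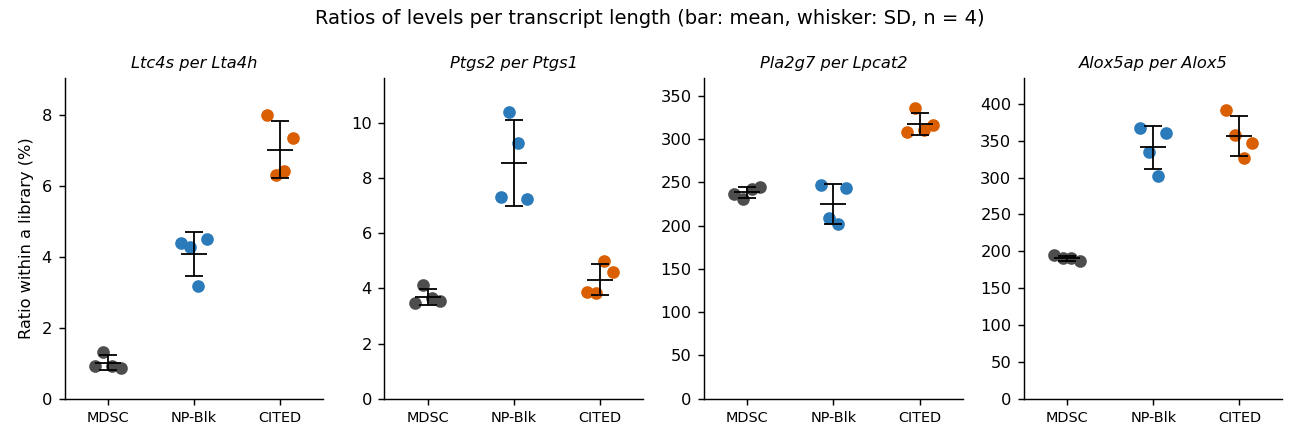
Ratio within each library of the levels per transcript length of 4 gene pairs, in percent (y axis, from 0), for the 4 libraries of each group (points) with the mean (bar) and SD (whisker). Ltc4s per Lta4h steps up across the 3 groups, Ptgs2 per Ptgs1 is highest with blank NPs, Pla2g7 per Lpcat2 is highest in CITED, and Alox5ap per Alox5 is higher in both NP-bearing groups.

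The rest of the pathway was read from 6 further lists of 76 genes, of which 74 were in the table and 68 were tested (Akr1b3 and Oxer1 were not in the table used here). Against MDSC, 27 of the 68 rose and 17 fell in CITED, where 22.2% and 22.2% of all symbols did. Of these, 9 were called higher and 5 lower, against 3.28% and 6.7%. In MDSC-NP-Blk against MDSC, 26 rose and 13 fell, where 19.9% and 18.6% did. By edgeR 2 were called higher and 0 lower, against 1.88% and 2.86%. Between CITED and MDSC-NP-Blk, 16 rose and 11 fell, where 10.5% and 11.4% did. Here 0 were called higher and 3 lower, against 0.651% and 2%. The same shares of all symbols stand beside the counts of the single lists below. The median log2 fold change over the 68 genes was 0.15, 0.16, and 0.012 in these comparisons, beside −0.052, −0.027, and 0 over all symbols. Genes called and with a mean normalized count above 50 are named with their values, up to the 3 with the largest change per list and comparison. Cyp4f18, Ptger1, and Ptafr are named beyond that limit, and Lpcat2, Ggt1, and Ptgr1 without a call, after their values were seen. Called genes below that mean were Pla2g4b (20.9), Alox8 (21.2), Dpep3 (28.6), and Tbxa2r (7.71).

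Several enzymes that act on finished leukotrienes rose, but not all genes of this list did. Among the other lipoxygenase and leukotriene enzymes, of 16 tested, 7 rose and 2 fell in CITED, with 4 called higher and 2 lower, and 8 rose and 2 fell in MDSC-NP-Blk, with 2 called higher. Dpep2, a dipeptidase that converts leukotriene D4 to E4, had 2607 ± 125 normalized counts in unmodified MDSCs, 6023 ± 242 with blank NPs, and 7666 ± 134 in CITED (SD, n = 4 each), a rise in both (log2 fold change 1.21, adjusted p = 1.06e-19 and log2 fold change 1.56, adjusted p = 3.73e-23). Ggt5, the transferase that cuts leukotriene C4 to D4, rose from 393 ± 29.7 to 884 ± 39.9 in CITED (log2 fold change 1.17, adjusted p = 1.11e-14). With blank NPs it rose to 568 ± 13.5 (log2 fold change 0.53, adjusted p = 1.14e-06), short of a call. Cyp4f18, which oxidizes leukotriene B4, rose from 1547 ± 128 to 3141 ± 139 in CITED (log2 fold change 1.02, adjusted p = 4.68e-16), and was not called without MDSC replicate 1 (0.98). With blank NPs it rose to 2600.5 ± 145 (log2 fold change 0.75, adjusted p = 2.81e-12), short of a call. Dpep2, Ggt5, and Cyp4f18 act on leukotrienes once made, on either the cysteinyl or the B4 arm. Ggt1, of the same list, did not pass in CITED against MDSC (log2 fold change 0.10, adjusted p = 0.628). It fell in MDSC-NP-Blk (log2 fold change −0.45, adjusted p = 0.024). Mgst1, a microsomal glutathione transferase, rose from 3706 ± 222 to 7501 ± 453 in MDSC-NP-Blk (log2 fold change 1.02, adjusted p = 4.6e-17), a value so near the threshold that leaving out MDSC replicate 3, MDSC-NP-Blk replicate 1, or MDSC-NP-Blk replicate 4 gave 0.99, 0.997, and 0.99. In CITED it rose to 7355 ± 290 (log2 fold change 0.99, adjusted p = 2.65e-17), just short of a call. The difference between the NP-bearing groups did not pass (−0.028, adjusted p = 0.782). In the opposite direction, Alox15, which makes other oxidized fatty acids, had 78.5 ± 8.18 normalized counts in MDSC, 64.8 ± 27.2 with blank NPs, and 23.6 ± 6.35 in CITED. It fell in CITED against both (log2 fold change −1.74, adjusted p = 4.99e-06 against MDSC and log2 fold change −1.46, adjusted p = 0.000257 against MDSC-NP-Blk), where most of the eosinophil markers given above fell too. With blank NPs against MDSC, Alox15 did not pass (log2 fold change −0.28, adjusted p = 0.426), while 4 eosinophil markers fell and 5 did not pass. Alox15 is an eosinophil gene among others, and the part of any cell type in its level was not tested. Alox12, the platelet-type lipoxygenase, had 53.1 ± 8.47 normalized counts in MDSC, 103 ± 27.6 with blank NPs, and 40.3 ± 12.8 in CITED. It rose with blank NPs against MDSC (log2 fold change 0.95, adjusted p = 0.00178), short of a call. Between the NP-bearing groups Alox12 was lower in CITED (log2 fold change −1.34, adjusted p = 0.000113). For CITED against MDSC it did not pass (log2 fold change −0.39, adjusted p = 0.244).

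Receptors were the other list with several calls, and it also held the formyl peptide receptor genes Fpr1 and Fpr2. Of 17 tested, 7 rose and 4 fell in CITED, with 5 called higher and 1 lower, and 6 rose and 2 fell in MDSC-NP-Blk, with 0 called by edgeR. The 5 called higher included Fpr1, Fpr2, and Tbxa2r, the last at a mean of 7.71 normalized counts over all libraries. Ptger2, a prostaglandin E2 receptor, rose from 411 ± 39.7 in unmodified MDSCs to 963 ± 91.7 in CITED (log2 fold change 1.23, adjusted p = 1.29e-13; SD, n = 4 each). Fpr1, a formyl peptide receptor, rose from 2495 ± 207 to 5584 ± 479.8 (log2 fold change 1.16, adjusted p = 6.41e-15). Its relative Fpr2, which also binds lipoxin A4, rose from 4526 ± 428 to 10067 ± 536 (log2 fold change 1.15, adjusted p = 1.37e-17). Both are known for guiding neutrophils and monocytes. Ptafr, the PAF receptor, had 2081 ± 187 normalized counts in MDSC and 4258 ± 174 in CITED (log2 fold change 1.03, adjusted p = 2.46e-13), and was not called without MDSC replicate 1 (0.9995). Ptger1, another prostaglandin E2 receptor, fell from 90.4 ± 21.2 to 41.8 ± 11.1 (log2 fold change −1.11, adjusted p = 0.000808), and was not called without MDSC replicate 3 (−0.96). With blank NPs against MDSC, Ptger2, Fpr1, Fpr2, and Ptafr also rose (log2 fold changes 0.80, 0.66, 0.67, and 0.63), short of a call. Ptger1 also fell there (−0.85). Between the NP-bearing groups, Ptger2, Fpr1, Fpr2, and Ptafr were higher in CITED (0.43, 0.50, 0.48, and 0.40), not called, and Ptger1 did not pass (−0.26). With library totals alone Ggt5, Cyp4f18, Ptger2, Ptafr, Fpr1, and Fpr2 still rose in CITED against MDSC, by 0.75 to 0.96, and were not called. In MDSC-NP-Blk the same held for Dpep2 (0.95) and Mgst1 (0.76). After the length correction Cyp4f18 (0.90), Ptger1 (−0.95), and Abcc4 (−0.89) in CITED and Mgst1 (0.84) in MDSC-NP-Blk were no longer called.

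The remaining lists held few calls. Of 10 tested genes of arachidonate release, 2 rose and 2 fell in CITED, with 0 called higher and 1 lower, and 3 rose and 1 fell in MDSC-NP-Blk. Among 11 other prostanoid enzymes, 6 rose and 2 fell in CITED and 4 rose and 1 fell in MDSC-NP-Blk, with 0 called. Ptgr1 fell in both, with log2 fold changes of −0.25 (adjusted p = 0.00382) in CITED and −0.68 (adjusted p = 1.38e-09) in MDSC-NP-Blk. All 10 other PAF enzymes passed the test in both comparisons against MDSC, 4 rising and 6 falling in each, with 0 called. Of 4 transporters, 1 rose and 1 fell in CITED, and the one that fell was Abcc4, which exports prostaglandins, from 987 ± 106 to 449 ± 31.9 (log2 fold change −1.14, adjusted p = 7.13e-13; SD, n = 4 each). With blank NPs Abcc4 fell to 544 ± 61.8 (log2 fold change −0.85, adjusted p = 7.15e-10), short of a call.

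**Figure D5:**
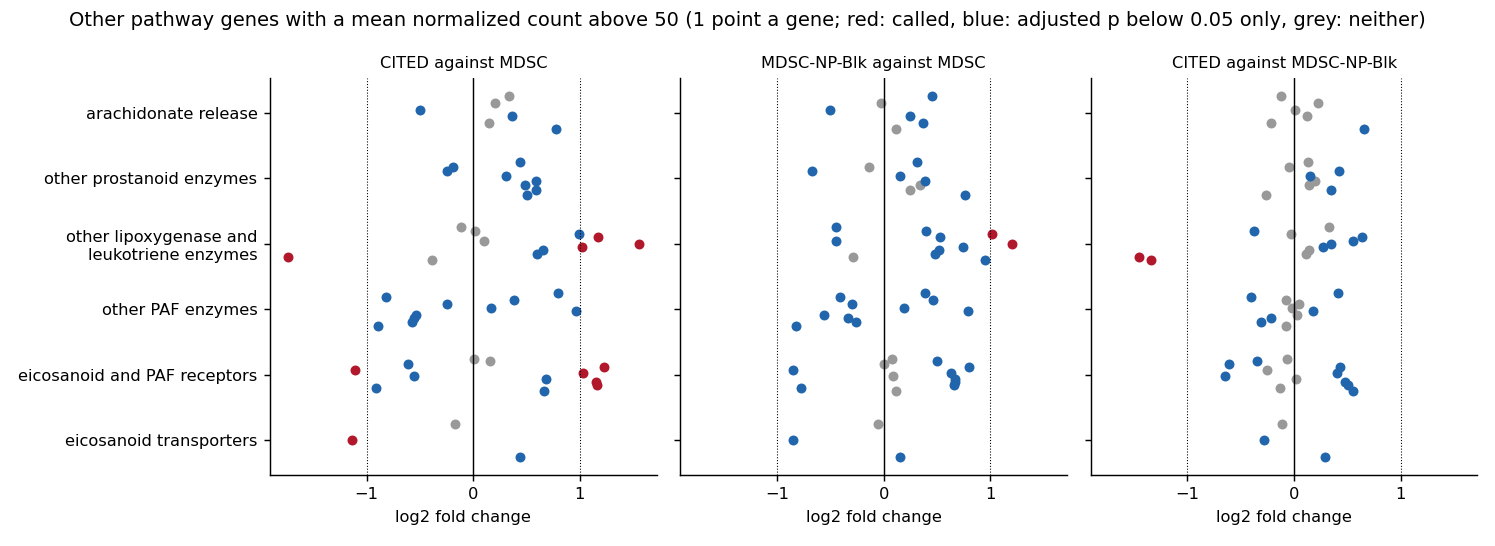
Log2 fold change (x axis) of the 50 genes of the 6 other pathway lists with a mean normalized count above 50, in the 3 comparisons, 1 point a gene. Red marks called genes, blue those with an adjusted p below 0.05 only, and grey the others; the called genes in CITED against MDSC lie in the leukotriene, receptor, and transporter lists, and Alox15 is the lowest point.

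The genes whose pattern over the 12 libraries was most like that of each well expressed enzyme were found among 10555 candidates by the root mean square difference of centred log2 CPM values. Blvrb (0.0614) and Slfn1 (0.0618) were nearest to Pla2g7, Knstrn (0.05002) and Cdca8 (0.0687) to Lta4h, and Fau (0.0583) and Eif1 (0.0597) to Alox5ap. For Ltc4s they were Retnlg (0.166) and Cox7a2l (0.188), and for Ptgs2 Nr4a1 (0.159) and Serpinb10 (0.170). Ptgs1 lay nearest to Fam20c (0.0518) and Mmp19 (0.0583), Alox5 to 6430548M08Rik (0.0378) and Myo1g (0.0380), Tbxas1 to Socs2 (0.0524) and Neu1 (0.0616), and Ptges to Tnfrsf23 (0.0896) and Naa80 (0.0971).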

How the data were processed

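Poly(A) RNA from 12 libraries, in 3 groups of 4 as given in the sample titles, was sequenced as paired-end reads. The authors quantified transcripts with Salmon 1.4.0 against GRCm39 GENCODE transcripts (release not stated), summed them per gene with tximport in R 4.3.2, and deposited whole-number counts per symbol, neither normalized nor filtered; the method states that each group held biologically independent replicates. An entry with a blank symbol (0 counts) was left out, and 0 columns belonged to other samples.

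The 17676 symbols with at least 2 counts over all libraries were tested in R 4.3.3 with edgeR 4.0.16 (TMM, glmQLFit and glmQLFTest, group as the only term, 12 libraries in 1 fit, robust estimation off; biological coefficient of variation 9.03%), and p-values were adjusted by Benjamini-Hochberg over all symbols tested. The study used DESeq2, which was run as an alternative (version 1.42.0). Standard errors are the absolute log2 fold change over the square root of F. The 10 enzymes and all lists were chosen with earlier results of these data known. The floor was set at 3 counts for each library, whatever its depth. The 95% intervals of log2 fold changes use these standard errors, which include the spread between the libraries of a group. From the other lists the text gives fold changes of called genes with a mean normalized count above 50, at most the 3 with the largest change per list and comparison. The exceptions are named in the results. It also names the 2 nearest genes to each enzyme with a mean above 50. Alternatives covered the tool, normalization, filter, samples in the fit, a replicate block, transcript length (loess, span 0.5), the threshold, and each library left out. Transcript lengths and positions came from GENCODE M39, which held 17648 of the 17676 symbols, and promoter windows from RefSeq on GRCm38.p6, which held 9 of the 10 enzymes. Figures were drawn with Python 3.11.15 and matplotlib 3.10.9.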

Additional observations from a re-analysis of the deposited data

Results flagged for a closer look

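Ltc4s in replicate 3 of MDSC-NP-Blk stood apart from its group, at 169.9 normalized counts where the other 3 libraries had 232 to 242. It was the single one of 30 groups of 4 values (10 genes in 3 groups) whose farthest library lay farther off than Dixon's 95% limit, and chance marks about 1 group in 20. The rise of Ltc4s against MDSC was called with and without that library.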

How the results depend on the processing

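For CITED and for blank-NP cells against unmodified MDSCs, and for CITED against blank-NP cells, 4, 3, and 0 enzymes were called, and 3 to 5, 3 to 4, and 0 to 0 with other tools, normalizations, filters, samples, and lengths. Without the fold change threshold they were 8, 9, and 5, and 7862, 6815, and 3883 of all symbols passed. Leaving out each library gave 4 to 5, 3 to 3, and 0 to 0 enzymes and 1631 to 1772, 722 to 892, and 417 to 474 symbols called, and 8 to 10 of the 10 enzymes kept their place in the order of levels per length. With median coding transcript lengths, an alternative chosen after seeing the data, 6 of 10 kept it. Lta4h, Ltc4s, and Pla2g7 in CITED and Ptgs2 and Ltc4s in MDSC-NP-Blk were called under every alternative run.

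Signs turned only for differences near 0. Tbxas1 in CITED against MDSC was −0.18 with library totals and −0.0025 with the length correction. Alox5ap between CITED and MDSC-NP-Blk was 0.00091 with DESeq2, 0.00087 with RLE factors, 0.0042 with upper-quartile factors, 0.013 with the length correction, 0.019 with the median coding length, and −0.054 to 0.036 with a library left out (0.025 without MDSC-NP-Blk replicate 4, 0.036 without MDSC-NP-Blk replicate 1, 0.0013 without CITED replicate 2, and 0.0082 without CITED replicate 3). Ltc4s there was 0.00044 with the length correction. The cause of these turns was not tested.

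The replicate numbers share only a number: after removing group means, same-numbered libraries had mean correlations of 0.010, −0.017, and 0.051 over 10556 genes, with 1 of 12 pairs above 0.1. With the replicate number as a block, 4, 3, and 0 enzymes and 1621, 766, and 441 symbols were called. Depth limited Hpgds, whose raw counts were 3 to 28.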
